A study of Mus musculus with 8 samples.

Results

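The genes described here carry calcium and magnesium across the cells of the distal kidney tubule or make, sense and break down active vitamin D. They are the 10 genes Trpv5, Trpm6, Pvalb, Calb1, S100g, Slc8a1, Vdr, Cyp27b1, Cyp24a1 and Kl, among the 20245 entries of each expression file, and all 10 were found by symbol. They were chosen from their levels across the 4 groups of these libraries, so those levels and the fold changes between groups are given as a description, with no test. Poly(A) RNA of whole kidney from C57BL/6 mice was sequenced in 8 libraries, 2 per group. PKD_FP libraries came from kidneys of mice with PKD, autosomal dominant polycystic kidney disease, treated with FP, and PKD_DMSO libraries from PKD kidneys given DMSO, the vehicle. WT_FP libraries came from wild-type (WT) kidneys treated with FP, and WT_DMSO libraries from WT kidneys given DMSO. FP is flavopiridol by the series' design, an inhibitor of cyclin-dependent kinases including the kinase of the elongation factor P-TEFb, whose activation by cAMP and protein kinase A the series concerns. The sources used here give neither the mutated gene, nor any promoter or Cre that drives its loss, nor the dose, its duration or the animals' age. The labels do not say whether the replicates were separate animals, so the p-values below measure only the spread between these samples.

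Most filtered calcium and magnesium is taken back upstream of the distal tubule, and the distal convoluted and connecting tubules set how much of the rest is kept. There calcium crosses the cell in steps. It enters through the apical channel TRPV5, travels bound to the buffer proteins calbindin-D28k (Calb1) and calbindin-D9k (S100g), and leaves through the sodium-calcium exchanger NCX1 (Slc8a1) and calcium pumps. Parvalbumin (Pvalb) is a calcium buffer of the early distal convoluted tubule, where TRPM6 is the apical magnesium channel. CYP27B1 makes active vitamin D, CYP24A1 breaks it down, and the vitamin D receptor (Vdr) is the transcription factor it binds. Klotho (Kl) is the co-receptor through which the hormone FGF23 acts on the kidney. All 10 are protein-coding genes in RefSeq. On GRCm38 the channel genes lie as Trpv5 at chr6:41651661-41681224 and Trpm6 at chr19:18730177-18892521. The buffer and exchanger genes lie as Pvalb at chr15:78191112-78206400, Calb1 at chr4:15881264-15906709, S100g at chrX:162961992-162964599 and Slc8a1 at chr17:81373105-81738387. The vitamin D and klotho genes lie as Vdr at chr15:97854427-97908296, Cyp27b1 at chr10:127048246-127054884, Cyp24a1 at chr2:170482957-170497145 and Kl at chr5:150952607-150993817.

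The promoters of the 3 genes with the widest differences between PKD_DMSO and WT_DMSO are shown because these differences ran in opposite directions, lower for Pvalb and S100g and higher for Trpv5. Each window holds the 300 bases that RefSeq's table gives around a start of the gene, on the minus strand of GRCm38.p6, the assembly of mm10, and is written 5′ to 3′. The Pvalb and S100g windows reach past the 5′ end of the gene span given above, and the Trpv5 window lies inside that span. Capitals mark matches on either strand to the motifs searched, TATAAA (the TATA box), AGGTCA (a core site of nuclear receptors), GTTAAT (part of the site of the tubule factor HNF1) and the vitamin D response element, a direct repeat of such a core. For Pvalb, the outer of 2 annotated windows is shown, at chr15:78206351-78206650, for S100g the window is chrX:162964550-162964849, and for Trpv5 it is chr6:41680674-41680973.
Pvalb: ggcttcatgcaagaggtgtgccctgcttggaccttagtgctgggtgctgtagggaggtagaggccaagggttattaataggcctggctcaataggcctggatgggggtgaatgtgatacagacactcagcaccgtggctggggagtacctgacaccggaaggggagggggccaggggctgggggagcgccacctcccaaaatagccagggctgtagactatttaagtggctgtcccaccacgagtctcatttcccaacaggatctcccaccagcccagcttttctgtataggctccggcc
S100g: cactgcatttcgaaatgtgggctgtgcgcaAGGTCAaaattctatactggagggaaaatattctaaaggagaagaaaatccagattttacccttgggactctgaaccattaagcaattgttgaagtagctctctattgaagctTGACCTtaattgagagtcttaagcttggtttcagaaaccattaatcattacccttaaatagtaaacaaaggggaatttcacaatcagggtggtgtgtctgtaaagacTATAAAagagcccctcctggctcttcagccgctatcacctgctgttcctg
Trpv5: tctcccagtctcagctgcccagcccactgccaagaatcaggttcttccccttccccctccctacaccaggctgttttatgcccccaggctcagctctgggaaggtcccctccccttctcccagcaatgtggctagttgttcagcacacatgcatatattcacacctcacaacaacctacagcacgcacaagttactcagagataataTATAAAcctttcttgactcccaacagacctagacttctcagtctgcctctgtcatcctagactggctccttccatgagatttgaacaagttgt
The S100g window held TATAAA at bases 251 to 256, and AGGTCA at bases 31 to 36 and, on the other strand, at bases 144 to 149. The Trpv5 window held TATAAA at bases 208 to 213, and the Pvalb window held none of the letters searched. GC content was 58.3% in the Pvalb window, 41.0% in the S100g window and 50.7% in the Trpv5 window. RefSeq windows were matched for 8 of the 10 genes, and among these TATAAA was found in 2 and AGGTCA in 1, while GTTAAT and the vitamin D response element were found in 0. Over all 32851 promoter windows of the same length, 13.6% held TATAAA, 16.3% held AGGTCA, 7.1% held GTTAAT and 0.256% held the vitamin D response element. A match is a run of letters, not evidence of binding.

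The deposited values name no unit and are taken to be FPKM, a level scaled for transcript length and library size. On that reading, levels can be set side by side between genes. The sum of the values per library ranged from 486060 to 572823. Since the files hold no read counts, neither intervals from counts nor floors are given. Differences between groups are log2 fold changes of FPKM + 1 with their standard error (SE) from one limma fit to all 8 libraries and the 14391 genes that reached 1 FPKM in 2 or more of them. All 10 genes passed that filter. The SE of a gene is the same in every comparison of 2 groups, since the spread is pooled over the 4 groups. The WT libraries did not pair by treatment. WT_FP replicate 1 correlated best with WT_DMSO replicate 2 (Pearson r of log2 values over genes, 0.986) and WT_FP replicate 2 with WT_DMSO replicate 1 (0.979), against 0.964 within WT_FP and 0.969 within WT_DMSO. Each PKD library correlated best with the other of its own group, at 0.970 for PKD_FP and 0.975 for PKD_DMSO. Adipoq, a fat cell gene picked out after its values were seen, reached 47.3 FPKM in WT_FP replicate 2 and at most 7.40 FPKM in any other library. In whole-kidney RNA, fewer cells of a type and less RNA per cell cannot be told apart.

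Pvalb, Calb1, S100g, Slc8a1 and Kl separated all 4 PKD libraries from all 4 WT libraries. Under DMSO the 3 buffer genes were lower in PKD kidneys and Trpv5 was higher, and under FP the buffers were again lower. The values of replicate 1 are given before those of replicate 2 throughout.

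**Figure D1:**
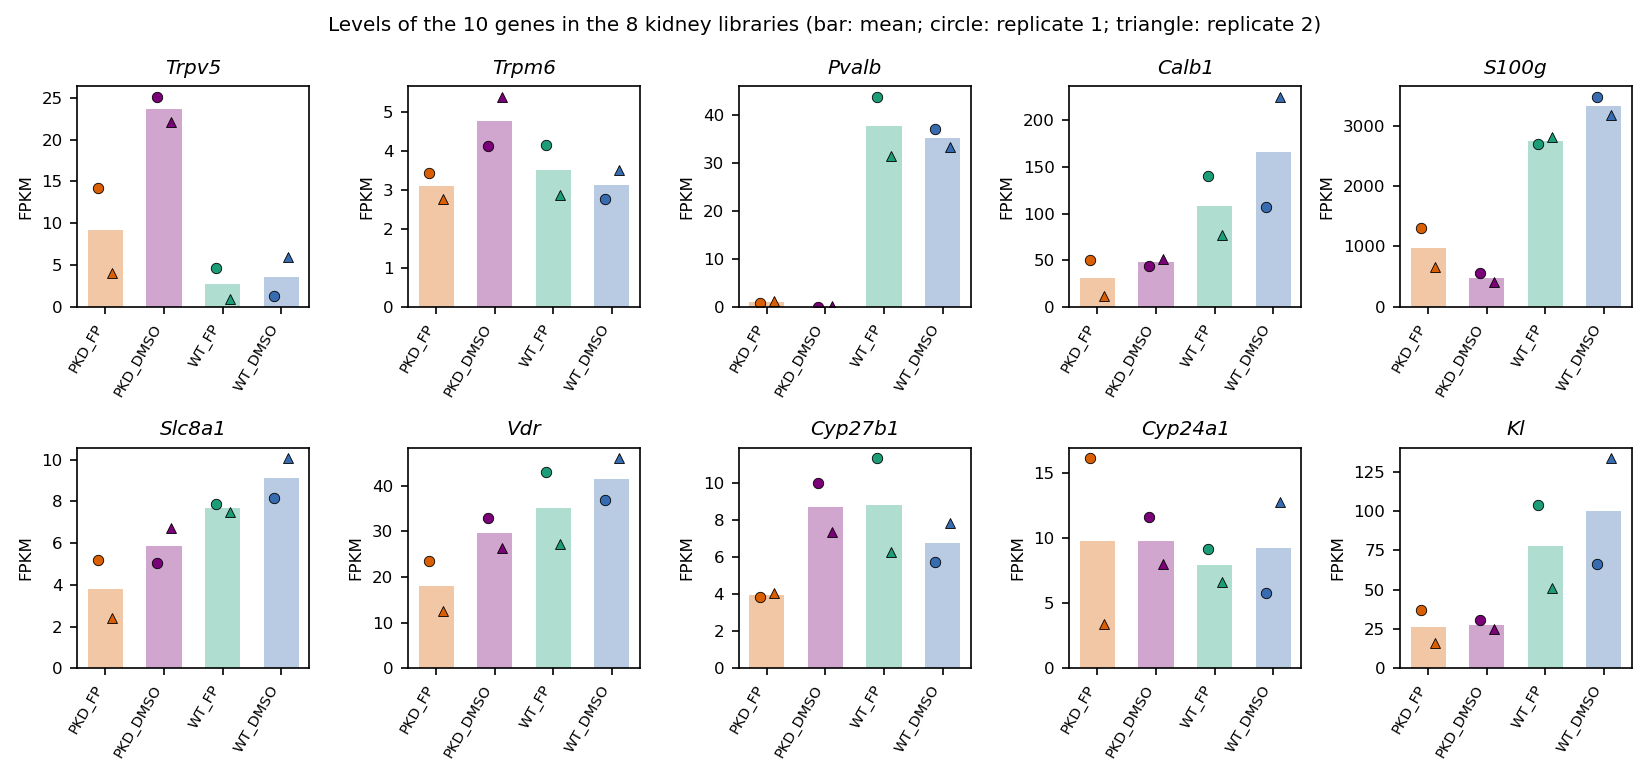
FPKM of the 10 genes (1 panel each, own linear axis from 0) in every library, with groups ordered PKD_FP, PKD_DMSO, WT_FP and WT_DMSO; circles are replicate 1, triangles replicate 2 and bars the group mean. Pvalb lies at or below 1.16 FPKM in the 4 PKD libraries and at or above 31.4 FPKM in the 4 WT libraries, while for Cyp24a1 the 2 PKD_FP libraries, at 16.2 and 3.37 FPKM, span all others.

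Pvalb stood at 0.84 and 1.16 FPKM in PKD_FP kidneys and at 0.00 and 0.06 FPKM in PKD_DMSO kidneys, against 44.0 and 31.4 FPKM in WT_FP kidneys and 37.2 and 33.5 FPKM in WT_DMSO kidneys. All 4 PKD libraries lay below all 4 WT libraries, and PKD_DMSO replicate 1 was listed at 0. The group means were 1.0 ± 0.23 FPKM in PKD_FP, 0.03 ± 0.04 FPKM in PKD_DMSO, 37.7 ± 8.86 FPKM in WT_FP and 35.3 ± 2.66 FPKM in WT_DMSO (SD, n = 2 each). The log2 fold change was -4.26 ± 0.20 (SE) for PKD_FP vs WT_FP and -5.14 ± 0.20 for PKD_DMSO vs WT_DMSO. Its size is set in part by the pseudocount of 1 FPKM. With 0.1 FPKM added, the values were -5.10 for PKD_FP vs WT_FP and -8.13 for PKD_DMSO vs WT_DMSO. Parvalbumin is also a gene of fast skeletal muscle, and the summed level of 5 skeletal muscle markers was 2.18 to 4.85 FPKM in all 8 libraries, with Ckm at 0 in 6 of them. Among these markers Tnni2 was higher in PKD_DMSO, at 2.99 and 1.96 FPKM against 0.44 and 0.28 FPKM in WT_DMSO. Mylpf was lower there, at 1.47 and 1.05 FPKM against 2.79 and 1.81 FPKM.

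S100g, the small calbindin, was the most abundant of the 10 genes in every library. It stood at 1299 and 664 FPKM in PKD_FP and at 556 and 413 FPKM in PKD_DMSO, against 2695 and 2811 FPKM in WT_FP and 3486 and 3181 FPKM in WT_DMSO. The 4 groups did not overlap, and their order from high to low was WT_DMSO, WT_FP, PKD_FP and PKD_DMSO. The log2 fold change was -1.57 ± 0.32 for PKD_FP vs WT_FP and -2.79 ± 0.32 for PKD_DMSO vs WT_DMSO. Calb1, the large calbindin, stood at 50.2 and 11.9 FPKM in PKD_FP and at 43.4 and 51.7 FPKM in PKD_DMSO, against 140 and 76.5 FPKM in WT_FP and 107 and 225 FPKM in WT_DMSO. Every PKD library was below every WT library, but libraries of one group differed by up to 4.22 times. The log2 fold change of Calb1 was -2.02 ± 0.67 for PKD_FP vs WT_FP and -1.69 ± 0.67 for PKD_DMSO vs WT_DMSO.

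Trpv5 ran the other way from the buffers. It stood at 14.3 and 4.09 FPKM in PKD_FP and at 25.2 and 22.1 FPKM in PKD_DMSO, against 4.61 and 0.90 FPKM in WT_FP and 1.24 and 5.95 FPKM in WT_DMSO. Both PKD_DMSO libraries were above all 6 others, while PKD_FP replicate 2 lay inside the WT range. The log2 fold change was 1.43 ± 0.76 for PKD_FP vs WT_FP, where the groups overlapped, and 2.64 ± 0.76 for PKD_DMSO vs WT_DMSO. The magnesium channel gene Trpm6 was low in every library, at 3.42 and 2.75 FPKM in PKD_FP, 4.13 and 5.39 FPKM in PKD_DMSO, 4.15 and 2.87 FPKM in WT_FP and 2.76 and 3.50 FPKM in WT_DMSO. PKD_DMSO was above WT_DMSO by a log2 fold change of 0.48 ± 0.23, and PKD_FP and WT_FP overlapped, with a log2 fold change of -0.13 ± 0.23.

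Slc8a1, the exit step, was lower in PKD kidneys under both treatments by less than the buffers were. It stood at 5.17 and 2.42 FPKM in PKD_FP and at 5.03 and 6.73 FPKM in PKD_DMSO, against 7.87 and 7.48 FPKM in WT_FP and 8.15 and 10.1 FPKM in WT_DMSO. All 4 PKD libraries lay below all 4 WT libraries, with log2 fold changes of -0.92 ± 0.30 for PKD_FP vs WT_FP and -0.56 ± 0.30 for PKD_DMSO vs WT_DMSO. Exons of Slc8a1 overlap those of an antisense gene, and exons of Cyp24a1 overlap those of Pfdn4 on the other strand. The sources used here do not say whether reads were counted by strand, so reads of such partners cannot be told apart.

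**Figure D2:**
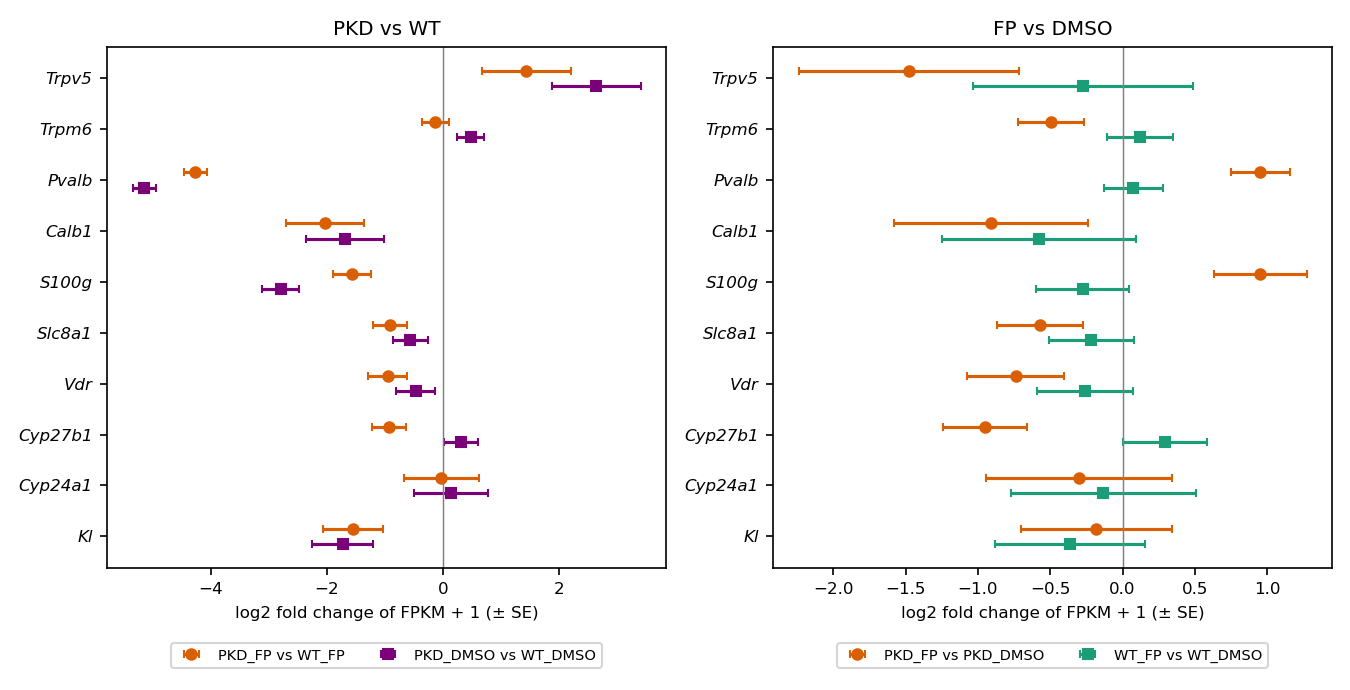
Log2 fold change of FPKM + 1 with its SE for the 10 genes, PKD vs WT on the left (under FP and under DMSO) and FP vs DMSO on the right (in PKD and in WT kidneys); the line marks 0. On the left Pvalb lies farthest from 0, at -4.26 under FP and -5.14 under DMSO, and Trpv5 lies on the positive side; on the right Pvalb and S100g are the only 2 genes with a positive value in PKD kidneys.

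Of the vitamin D genes, Vdr and Cyp27b1 were lower in PKD kidneys under FP, and Cyp24a1 showed no separation of groups. Vdr stood at 23.4 and 12.6 FPKM in PKD_FP and at 33.0 and 26.3 FPKM in PKD_DMSO, against 43.0 and 27.2 FPKM in WT_FP and 36.8 and 46.0 FPKM in WT_DMSO. PKD_FP was below each of the other groups, and PKD_DMSO was below WT_DMSO while overlapping WT_FP. The log2 fold change of Vdr was -0.95 ± 0.33 for PKD_FP vs WT_FP and -0.47 ± 0.33 for PKD_DMSO vs WT_DMSO. Cyp27b1, the activating hydroxylase, stood at 3.87 and 4.07 FPKM in PKD_FP and at 10 and 7.37 FPKM in PKD_DMSO, against 11.4 and 6.25 FPKM in WT_FP and 5.72 and 7.84 FPKM in WT_DMSO. The PKD_FP libraries were below the 6 others, which overlapped. Its log2 fold change was -0.93 ± 0.29 for PKD_FP vs WT_FP and 0.32 ± 0.29 for PKD_DMSO vs WT_DMSO.

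Cyp24a1, the hydroxylase that inactivates vitamin D, stood at 16.2 and 3.37 FPKM in PKD_FP, 11.6 and 8.01 FPKM in PKD_DMSO, 9.19 and 6.65 FPKM in WT_FP and 5.78 and 12.8 FPKM in WT_DMSO. The groups overlapped in all 4 comparisons, and the 2 PKD_FP libraries alone held both the highest and the lowest value. Its log2 fold change was -0.03 ± 0.64 for PKD_FP vs WT_FP and 0.14 ± 0.64 for PKD_DMSO vs WT_DMSO, a value that turned to -0.03 with quantile normalization. Kl stood at 37.0 and 15.8 FPKM in PKD_FP and at 30.8 and 24.8 FPKM in PKD_DMSO, against 103 and 51.3 FPKM in WT_FP and 66.0 and 134 FPKM in WT_DMSO. Every PKD library was below every WT library, whereas the 2 PKD groups overlapped each other and so did the 2 WT groups. The log2 fold change of Kl was -1.55 ± 0.52 for PKD_FP vs WT_FP and -1.73 ± 0.52 for PKD_DMSO vs WT_DMSO.

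Counted together, 7 of the 10 genes were lower without overlap and 0 were higher in PKD_FP than in WT_FP, and 6 were lower and 2 higher in PKD_DMSO than in WT_DMSO. Over all genes tested, 25.2% were lower and 34.6% higher without overlap in PKD_FP vs WT_FP, and 24.5% lower and 41.2% higher in PKD_DMSO vs WT_DMSO. The median log2 fold change of the 10 genes was -0.94 for PKD_FP vs WT_FP, against 0.07 over all genes, and -0.52 for PKD_DMSO vs WT_DMSO, against 0.12. With median-of-ratios scaling the all-gene median was -0.02 for PKD_FP vs WT_FP and -0.01 for PKD_DMSO vs WT_DMSO. Since these comparisons chose the genes, the counts describe the choice. These 2 comparisons share no library, but each shares a group with the comparisons of FP and DMSO that follow.

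In PKD kidneys, FP went with higher Pvalb and S100g and with lower Trpv5, Trpm6, Vdr and Cyp27b1, each without overlap of the libraries. Over all genes tested, 31.4% were higher and 25.2% lower without overlap in PKD_FP vs PKD_DMSO. The count of 6 of the 10 genes is near that share and does not set them apart. For Pvalb the PKD_FP libraries, at 0.84 and 1.16 FPKM, remained far below the WT level, and the log2 fold change for PKD_FP vs PKD_DMSO was 0.95 ± 0.20, or 3.10 with 0.1 FPKM added. S100g averaged 981 ± 449 FPKM in PKD_FP and 485 ± 101 FPKM in PKD_DMSO (SD, n = 2 each), a ratio of 2.03 and a log2 fold change of 0.95 ± 0.32. Trpv5 averaged 9.18 ± 7.19 FPKM in PKD_FP and 23.6 ± 2.18 FPKM in PKD_DMSO, a log2 fold change of -1.48 ± 0.76. Cyp27b1 averaged 3.97 ± 0.14 FPKM in PKD_FP and 8.69 ± 1.86 FPKM in PKD_DMSO, with a log2 fold change of -0.95 ± 0.29. Vdr had a log2 fold change of -0.74 ± 0.33 and Trpm6 one of -0.49 ± 0.23. The groups of Calb1, Slc8a1, Cyp24a1 and Kl overlapped, with log2 fold changes of -0.91 ± 0.67, -0.57 ± 0.30, -0.30 ± 0.64 and -0.18 ± 0.52. Without PKD_FP replicate 2 the values of Calb1, Cyp24a1 and Kl became 0.08, 0.69 and 0.41, so their sign rested on 1 library.

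In WT kidneys FP and DMSO libraries overlapped for 8 of the 10 genes. S100g and Slc8a1 were lower in WT_FP without overlap, with log2 fold changes of -0.27 ± 0.32 and -0.22 ± 0.30. Over all genes tested, 16.6% were higher and 5.32% lower without overlap, so 2 of 10 is near the share over all genes in either direction. Both of the 2 genes were lower, where the share over all genes was 5.32%. The count of 2 became 1 with median-of-ratios scaling, which moved the all-gene median to -0.01 in WT_FP vs WT_DMSO, against 0.09 as deposited, and 0 with quantile normalization. The other values lay between -0.58 ± 0.67 for Calb1 and 0.30 ± 0.29 for Cyp27b1. The difference of the FP effects, PKD minus WT, was 1.23 ± 0.45 for S100g, 0.88 ± 0.29 for Pvalb, -1.21 ± 1.08 for Trpv5 and -1.25 ± 0.41 for Cyp27b1 on the log2 scale.

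The shares over all genes given above are the background for the counts without overlap. At a Benjamini-Hochberg adjusted p of 0.05, limma called 2 genes, 0.0139% of those tested, in PKD_FP vs PKD_DMSO, and 0 genes (0%) in WT_FP vs WT_DMSO and for the difference of the FP effects. At an unadjusted p under 0.05 it counted 2804, 183 and 1616 genes in these 3 comparisons.

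Several of the 10 genes varied together between the libraries of one group. In PKD_FP, replicate 1 was above replicate 2 by 1.99 for Calb1, 1.98 for Cyp24a1, 1.58 for Trpv5 and 1.18 for Kl on the log2 scale. In WT_FP, replicate 1 was above replicate 2 by 1.56 for Trpv5, 1.0 for Kl and 0.86 for Calb1. In WT_DMSO the order was turned, with replicate 1 minus replicate 2 at -1.63 for Trpv5, -1.07 for Calb1, -1.03 for Cyp24a1 and -1.01 for Kl. In PKD_DMSO these 4 genes differed by no more than 0.49 between the replicates. Replicate 1 was the higher for 8 of the 10 genes in PKD_FP and for 9 in WT_FP, against 41.4% and 34.8% of all genes tested, and replicate 2 was the higher for 8 in WT_DMSO, against 33.4%.

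The summed level of 6 markers of collecting duct principal cells ran opposite to these genes, at 868 and 1263 FPKM in PKD_FP, 634 and 1846 FPKM in WT_FP and 1147 and 760 FPKM in WT_DMSO, and was 606 and 571 FPKM in PKD_DMSO. Most of that sum was Aqp2, at 548 and 854 FPKM in PKD_FP. Scnn1b and Scnn1g, on the same list, instead ran with these genes in PKD_FP, WT_FP and WT_DMSO, as did Aqp3 in PKD_FP. Scnn1b stood at 47.3 and 29.9 FPKM in PKD_FP, 34.4 and 32.1 FPKM in WT_FP and 25.96 and 31.65 FPKM in WT_DMSO. The summed level of 8 distal convoluted tubule markers ran with the genes above, at 247 and 137 FPKM in PKD_FP, 866 and 559 FPKM in WT_FP and 690 and 853 FPKM in WT_DMSO, and was 259 and 233 FPKM in PKD_DMSO. Exceptions were Egf in PKD_FP, at 12.4 and 24.6 FPKM, and Wnk4 in both WT groups. Wnk4 stood at 86.8 and 88.2 FPKM in WT_FP and at 81.1 and 66.5 FPKM in WT_DMSO. Of the proximal tubule markers, Slc34a1, Lrp2, Cubn, Slc22a6, Slc27a2, Miox, Gatm and Cyp4b1 also ran with the genes above in PKD_FP, WT_FP and WT_DMSO. Slc5a2, Slc5a12 and Aqp1 did so only in part, and Kap ran opposite. The part of these cell types in the differences was not tested.

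**Figure D3:**
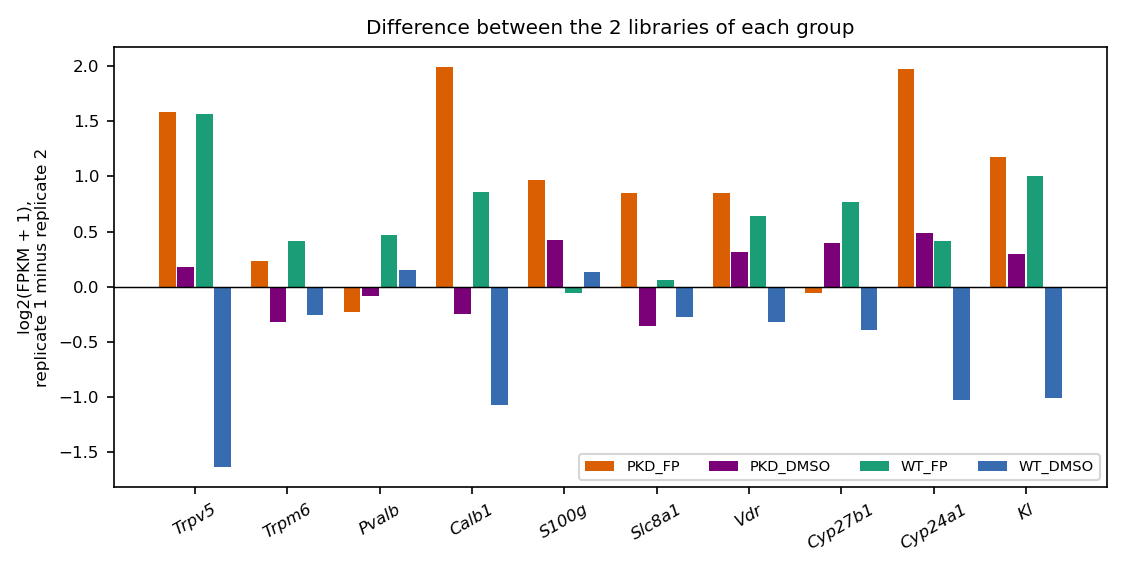
Log2(FPKM + 1) of replicate 1 minus replicate 2 for the 10 genes within each of the 4 groups; each bar is 1 gene in 1 group and the line marks no difference. In PKD_FP and WT_FP most bars lie above 0 (8 and 9 of 10), and in WT_DMSO most lie below (8 of 10).

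Across the 8 libraries, the genes whose level ran most like that of Calb1 were Nsdhl (Pearson r 0.990), Tbc1d22b (0.983) and Lrp2 (0.983), among 10630 genes with a mean log2(FPKM + 1) of at least 2. Lrp2 encodes megalin, the proximal tubule receptor that takes up filtered vitamin D with its binding protein. For Kl they were Lrpap1 (0.997), Tst (0.992) and Mdh2 (0.992), and for Pvalb Tyw3 (0.995), Entpd8 (0.992) and Rdh5 (0.991). For Slc8a1 they were Chrac1 (0.975), Atpaf1 (0.973) and Nelfcd (0.973), and for Cyp27b1 Dcun1d3 (0.970), Wdr81 (0.968) and Myh14 (0.964). Among the 10 genes themselves r was 0.966 for Calb1 with Slc8a1, 0.956 for Calb1 with Kl, 0.950 for Pvalb with S100g, and -0.80 for Pvalb with Trpv5. These are descriptions over 8 libraries that share groups and the order of replicates given above.

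The rest of the pathways was read from 6 lists of 84 other genes, called companion genes here, of which 78 were tested. In PKD_FP vs WT_FP limma called 6 companion genes higher and 14 lower, and in PKD_DMSO vs WT_DMSO 8 higher and 16 lower (adjusted p over all 14391 genes, threshold 0.05). Over all genes the calls were 8.71% higher and 5.23% lower in PKD_FP vs WT_FP, and 14.8% higher and 7.52% lower in PKD_DMSO vs WT_DMSO. In PKD_FP vs PKD_DMSO, WT_FP vs WT_DMSO and the difference of the FP effects 0 companion genes were called, with 15, 0 and 8 at an unadjusted p under 0.05. With median-of-ratios scaling the split was 3 higher and 15 lower in PKD_FP vs WT_FP and 3 higher and 18 lower in PKD_DMSO vs WT_DMSO, and with quantile normalization 5 and 15, and 4 and 18.

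The calls rested on few libraries. In PKD_DMSO vs WT_DMSO, 5 of the 24 calls remained without PKD_DMSO replicate 2 (Trpv6, Klk1, Egf, Pcbd1 and Slc34a3) and 14 without WT_DMSO replicate 1. In PKD_FP vs WT_FP, 3 of the 20 remained without PKD_FP replicate 1 or without WT_FP replicate 1 (Klk1, Egf and Slc34a3). There were 4 without PKD_FP replicate 2, 10 without either PKD_DMSO library, and 11 without WT_FP replicate 2, where 1 further gene was called.

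Among 11 tested partners of calcium transport, 4 rose and 1 fell under both treatments. How many of the 14 alternatives kept a call is given beside each call named, here and in the lists that follow. Trpv6, the calcium channel closest in kind to TRPV5, stood at 5.74 and 8.28 FPKM in PKD_FP and at 10.8 and 5.97 FPKM in PKD_DMSO, against 1.01 and 1.43 FPKM in WT_FP and 1.35 and 0.67 FPKM in WT_DMSO. All 4 PKD libraries were above all 4 WT libraries, with log2 fold changes of 1.84 ± 0.32 (limma adjusted p = 0.0188) for PKD_FP vs WT_FP and 2.19 ± 0.32 (adjusted p = 0.00739) for PKD_DMSO vs WT_DMSO. The call held under 11 of 14 alternatives in PKD_FP vs WT_FP and under 14 in PKD_DMSO vs WT_DMSO. Anxa2 and S100a10, which form a complex that carries TRPV5 and TRPV6 to the cell surface, were also called. For Anxa2 the log2 fold changes were 1.59 (limma adjusted p = 0.0323, held under 6 of 14) in PKD_FP vs WT_FP and 1.95 (0.0128, held under 12) in PKD_DMSO vs WT_DMSO. For S100a10 they were 0.78 (limma adjusted p = 0.0422, held under 4 of 14) and 0.86 (0.0243, held under 10) in the same comparisons. For Calm2, which encodes the calcium sensor calmodulin, they were 0.74 (limma adjusted p = 0.0216, held under 8) and 0.68 (0.0196, held under 8). With median-of-ratios scaling the calls of Calm2 ended in both comparisons and that of S100a10 in PKD_FP vs WT_FP. Klk1, tissue kallikrein, a connecting tubule protease that supports TRPV5 at the membrane, fell. It stood at 508 and 441 FPKM in PKD_FP and at 537 and 371 FPKM in PKD_DMSO, against 3089 and 2835 FPKM in WT_FP and 3419 and 3535 FPKM in WT_DMSO. Its log2 fold changes were -2.64 ± 0.21 (limma adjusted p = 0.0038) for PKD_FP vs WT_FP and -2.96 ± 0.21 (0.00151) for PKD_DMSO vs WT_DMSO, each held under 14 of 14 alternatives. The median log2 fold change of the list was 0.25 for PKD_DMSO vs WT_DMSO.

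Of 15 tested genes of magnesium transport and its control, 4 fell and 0 rose in PKD_FP vs WT_FP, and 4 fell and 3 rose in PKD_DMSO vs WT_DMSO. Egf, the hormone made by the distal convoluted tubule that stimulates TRPM6, stood at 12.4 and 24.6 FPKM in PKD_FP and at 15.9 and 7.79 FPKM in PKD_DMSO, against 384 and 255 FPKM in WT_FP and 310 and 396 FPKM in WT_DMSO. PKD and WT libraries were far apart, with log2 fold changes of -4.09 ± 0.42 (limma adjusted p = 0.00581) for PKD_FP vs WT_FP and -4.85 ± 0.42 (0.00196) for PKD_DMSO vs WT_DMSO. Both calls held under 14 of 14 alternatives. The 3 genes called higher in PKD_DMSO vs WT_DMSO were its receptor gene Egfr (log2 fold change 0.89, limma adjusted p = 0.0281, held under 8 of 14) and the magnesium transporter genes Slc41a1 (0.83, 0.0235, held under 8) and Nipa2 (0.69, 0.0381, held under 3). All 3 of these calls ended under median-of-ratios scaling and under quantile normalization. Lower in PKD_DMSO, beside Egf, were Pcbd1, the cofactor of HNF1, which fell by 1.79 on the log2 scale (limma adjusted p = 0.00465, held under 14 of 14), and Fxyd2, a subunit of the sodium pump that HNF1 regulates, which fell by 1.76 (0.00715, held under 12). The magnesium transporter gene Magt1 fell by 1.0 there (0.0144, held under 12). In PKD_FP vs WT_FP the genes called lower beside Egf were Cnnm4 (log2 fold change -0.92, held under 9 of 14), Trpm7 (-0.66, held under 3) and Pcbd1 (-0.93, held under 2).

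Among 9 tested genes of the thick ascending limb, where calcium and magnesium pass between the cells, 4 fell and 0 rose in PKD_DMSO vs WT_DMSO. They were Cldn10 (log2 fold change -1.86, limma adjusted p = 0.0104), a claudin of the sodium-selective pore, the salt transporter Slc12a1 (-1.56, 0.0105), the potassium channel Kcnj1 (-1.09, 0.0108) and the chloride channel subunit Bsnd (-1.44, 0.0072), each held under 13 of 14 alternatives. In PKD_FP vs WT_FP, Slc12a1 fell by 1.18 on the log2 scale (limma adjusted p = 0.0329, held under 4 of 14), and 2 claudin genes rose, Cldn14 by 1.52 (0.0321, held under 8) and Cldn16, the channel-forming claudin of this segment, by 0.65 (0.0443, held under 1). Cldn14 was low, at 3.73 and 1.41 FPKM in PKD_FP and 0.31 and 0.06 FPKM in WT_FP. Its log2 fold change ranged from 1.03 to 3.23 over the alternatives.

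Genes that take up, activate or respond to vitamin D showed few calls. Of 17 tested, 1 fell in PKD_FP vs WT_FP, Cubn, the partner receptor of megalin (log2 fold change -1.81, limma adjusted p = 0.0292, held under 7 of 14). In PKD_DMSO vs WT_DMSO 2 fell, Fdx1 (-0.90, 0.0249, held under 11) and Fdxr (-0.98, 0.0364, held under 6), which pass electrons to the mitochondrial vitamin D hydroxylases. Of 12 tested genes of parathyroid hormone, FGF23 and phosphate handling, 4 fell and 0 rose in PKD_FP vs WT_FP, and 3 fell and 1 rose in PKD_DMSO vs WT_DMSO. Slc34a3, a sodium-phosphate cotransporter of the proximal tubule, stood at 2.19 and 3.58 FPKM in PKD_FP and at 2.92 and 1.60 FPKM in PKD_DMSO, against 34.9 and 18.97 FPKM in WT_FP and 35.7 and 38.5 FPKM in WT_DMSO. Its log2 fold changes were -2.81 (limma adjusted p = 0.00818) for PKD_FP vs WT_FP and -3.58 (0.00222) for PKD_DMSO vs WT_DMSO, each held under 14 of 14 alternatives. Slc34a1, the main such cotransporter, fell by 2.32 on the log2 scale in PKD_FP vs WT_FP (limma adjusted p = 0.0235, held under 11 of 14) and by 2.42 in PKD_DMSO vs WT_DMSO (0.0143, held under 12). Fgfr4, an FGF receptor that can pair with klotho, fell by 1.39 (0.0161) and by 1.18 (0.0164) in the same comparisons, each held under 11. The other gene called lower in PKD_FP vs WT_FP was Fgfr3 (log2 fold change -0.86, held under 5). The 1 gene that rose in PKD_DMSO vs WT_DMSO was Slc20a2, another sodium-phosphate cotransporter, by 0.87 (0.0183, held under 9), a call that ended under both scalings.

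**Figure D4:**
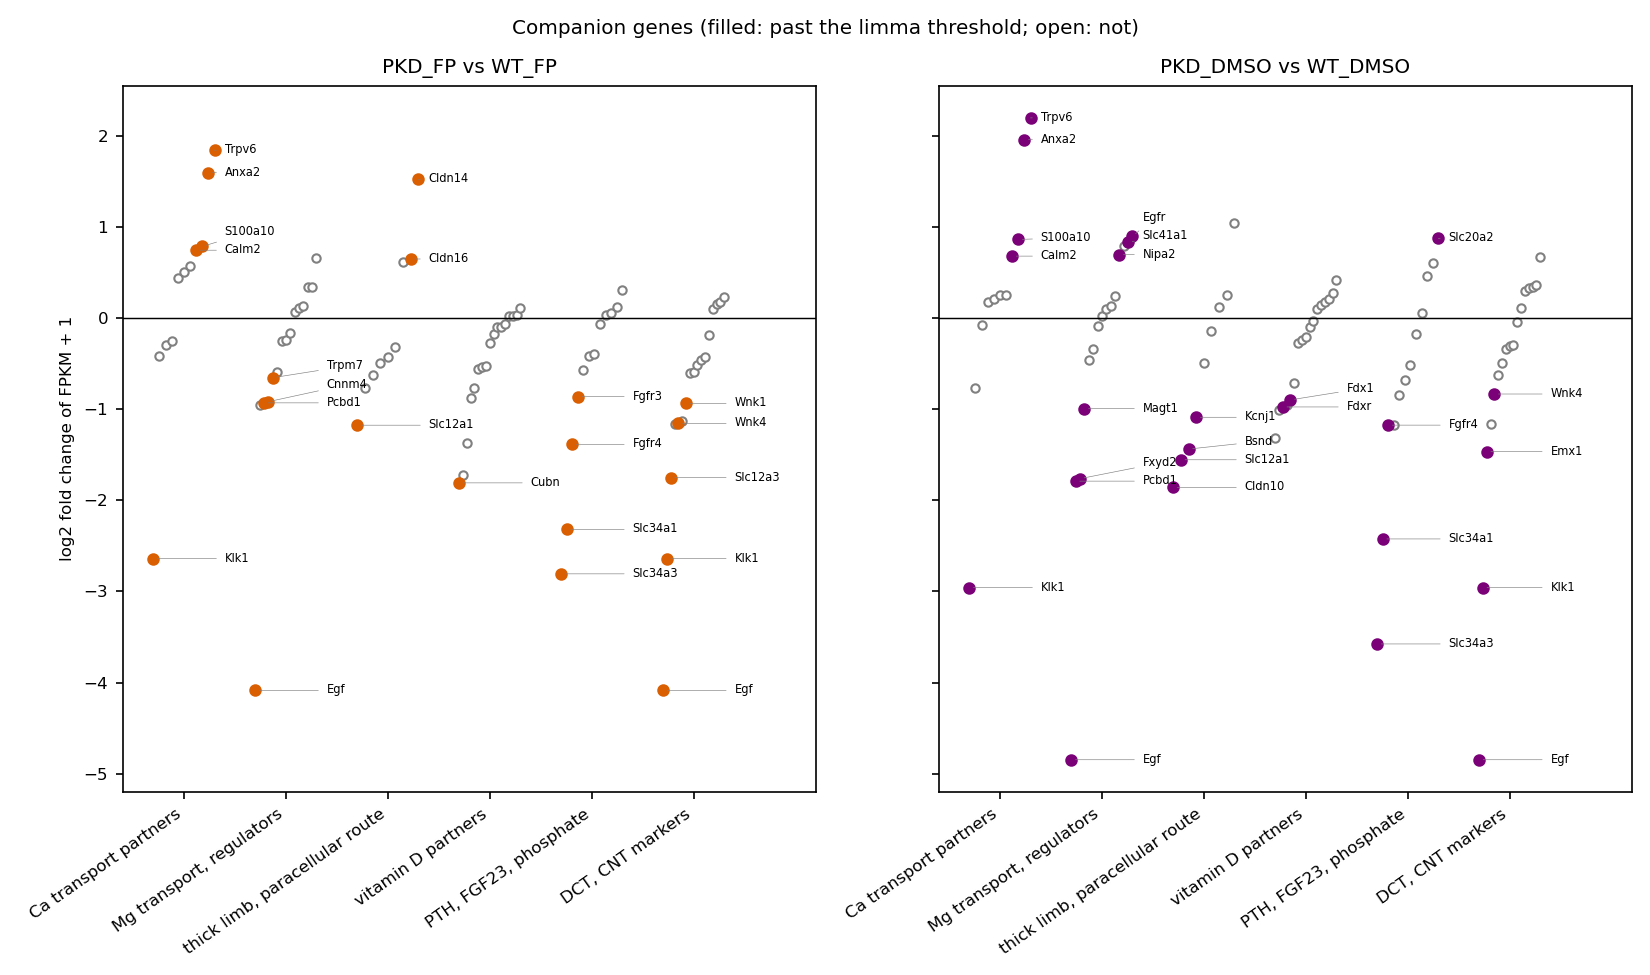
Log2 fold change of FPKM + 1 for the tested companion genes by list, PKD_FP vs WT_FP on the left and PKD_DMSO vs WT_DMSO on the right; each point is 1 gene, filled and named where limma's adjusted p passed 0.05 and open where it did not. Trpv6 and Anxa2 lie highest among the filled points of both panels, and Egf lies lowest, at -4.09 on the left and -4.85 on the right.

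RNA levels of many markers of the cell types around these genes differed between PKD and WT kidneys too. Of 17 tested markers of the distal convoluted and connecting tubules, 5 fell in PKD_FP vs WT_FP and 4 in PKD_DMSO vs WT_DMSO, and 0 rose in either. Egf and Klk1, given above, are among them in both. In PKD_DMSO vs WT_DMSO the others were Wnk4, a kinase that controls the cotransporter Slc12a3 (log2 fold change -0.84, limma adjusted p = 0.024, held under 11 of 14), and the homeobox gene Emx1 (-1.47, 0.0364, held under 9). Slc12a3, the sodium-chloride cotransporter that defines the distal convoluted tubule, stood at 66.5 and 31.1 FPKM in PKD_FP and at 81.1 and 87.8 FPKM in PKD_DMSO, against 212 and 114 FPKM in WT_FP and 176 and 205 FPKM in WT_DMSO. It fell in PKD_FP vs WT_FP by 1.75 ± 0.40 (SE) on the log2 scale (limma adjusted p = 0.0362, held under 4 of 14). Also called lower there were Wnk1 (log2 fold change -0.94) and Wnk4 (-1.16), each held under 11. In PKD_DMSO vs WT_DMSO the log2 fold change of Slc12a3 was -1.16 ± 0.40 (limma adjusted p = 0.0823). Beside that, the values of Pvalb, a marker of the same segment, were -4.26 and -5.14, and those of Trpm6 were -0.13 and 0.48.

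In PKD_DMSO vs WT_DMSO limma called all 10 macrophage markers higher, with summed levels of 660 and 1251 FPKM in PKD_DMSO against 122 and 75.5 FPKM in WT_DMSO. It called 4 of 8 fibroblast and smooth muscle markers higher, at 737 and 1488 FPKM in PKD_DMSO against 380 and 149 FPKM in WT_DMSO. Lower were 7 of 12 proximal tubule markers, 4 of 6 of the thick ascending limb, 3 of 8 of the distal convoluted tubule, 3 of 5 of intercalated cells and 2 of 4 of podocytes. The proximal tubule markers summed to 4633 and 2580 FPKM in PKD_DMSO against 32435 and 33191 FPKM in WT_DMSO. Most of that sum in WT_DMSO was Kap, at 26700 and 25856 FPKM, against 2696 and 1221 FPKM in PKD_DMSO. Aqp1, on the same list, was higher without overlap in PKD_DMSO, at 357 and 382 FPKM against 183 and 275 FPKM, but was not called. Cyp4b1 overlapped between the groups. Of the 6 principal cell and 4 endothelial markers 0 were called. The part of cell makeup in the levels of the 10 genes was not tested.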

How the data were processed

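RNA of whole kidney was measured in 8 libraries, 2 in each of PKD_FP, PKD_DMSO, WT_FP and WT_DMSO. Per the labels' protocols, TRIzol RNA went through oligo(dT) selection and BGI built the libraries. The deposited values are taken to be FPKM made by the authors. The headers name no unit, and FPKM was inferred because the values are not whole numbers and, multiplied by transcript length in kilobases, they summed to a like total in every library, 1215925 to 1272911. Bowtie2, DESeq2 and mm10 are named, with no role, per the submitters' processing notes. The sources used here give neither the counting tool, the annotation nor the read depth.

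From these values log2(FPKM + 1) was computed and fitted with limma 3.58.1 in R 4.3.3 (group means, trend and robust moderation, two-sided tests, Benjamini-Hochberg over the 14391 genes that reached 1 FPKM in 2 or more libraries, threshold 0.05). Left out were 5 of 20245 entries with a duplicated symbol or none. The fit was tested on simulated data. With 2 libraries per group the smallest two-sided p of a permutation test is 0.33. The 10 genes, the lists and the tests were chosen with earlier results of these data known. All 10 genes were named, with the called companion genes, at most 4 per list and direction by smallest p in PKD_DMSO vs WT_DMSO, and the 3 most correlated genes for each of 5 members. Cldn14, Cldn16, Cubn, Slc12a3, Trpm7, Cnnm4, Fgfr3 and Wnk1, called in PKD_FP vs WT_FP, were added after their values were seen. Promoters came from RefSeq (GRCm38.p6), exon overlaps from GENCODE. Alternatives were another pseudocount, no filter, median-of-ratios scaling, quantile normalization, a replicate block, fewer groups, and each library left out.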

Additional observations from a re-analysis of the deposited data

Results flagged for a closer look

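S100g was the gene whose libraries moved in opposite directions with FP in the 2 genotypes. Both PKD_FP libraries (1299 and 664 FPKM) were above both PKD_DMSO libraries (556 and 413 FPKM), and both WT_FP libraries (2695 and 2811 FPKM) were below both WT_DMSO libraries (3486 and 3181 FPKM). The WT change was smaller than its SE, at -0.27 ± 0.32 on the log2 scale. With quantile normalization the WT_FP and WT_DMSO libraries overlapped. The log2 change with FP in PKD kidneys minus that in WT kidneys was 1.23, and it ranged from 0.66 to 1.71 over the alternatives. The change in PKD kidneys alone ranged from 0.47 to 1.44. No p-value is given for S100g, because it was chosen with its levels in these groups known. Over all 14391 genes, S100g among them, limma called 0 for this difference.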

How the results depend on the processing

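Companion genes called in PKD_FP vs WT_FP numbered 20, but 12 with no low-value filter, 8 with only the groups compared in the fit, and 3 to 17 with 1 library left out. In PKD_DMSO vs WT_DMSO they numbered 24, and 5 to 24 with 1 library left out. With replicate number as a block the calls were 13 in PKD_FP vs WT_FP and 22 in PKD_DMSO vs WT_DMSO. The deviations of same-numbered libraries correlated at 0.48 in PKD_FP vs WT_FP, -0.18 in PKD_DMSO vs WT_DMSO, 0.09 in PKD_FP vs PKD_DMSO and -0.52 in WT_FP vs WT_DMSO; the labels tie the numbers to no animal or batch, and the correlations differ in sign, so the numbers were not taken as pairs. In PKD_FP vs PKD_DMSO, WT_FP vs WT_DMSO and the difference of the FP effects the count was 0 under every alternative run. The number of the 10 genes whose groups did not overlap was 6 in PKD_FP vs PKD_DMSO and 6 to 10 with 1 library left out. Over all genes tested 31.4% were higher and 25.2% lower there, which is near 6 of 10. In WT_FP vs WT_DMSO the number was 2, both lower, near the share over all genes in either direction, 16.6% higher and 5.32% lower. It was 1 with median-of-ratios scaling, 0 with quantile normalization, and 2 to 7 with 1 library left out. Leaving out a library can only add to these counts. The cause of the other shifts was not tested. Precision is limited by 2 libraries per group and by a read depth that is unknown.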
